A study of Mus musculus with 6 samples.

Results

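Rab proteins are small GTPases that mark the membranes of the secretory and endocytic routes, and the array measured 50 Rab genes out of 12393 genes with a probe set of a single symbol (0.403%). A gene counted as a Rab when its symbol was Rab followed by a number and at most a single letter, so effectors and regulators such as the Rab11fip and Rab3gap genes were not members. Of several probe sets of a gene, the one brightest on average across the 6 arrays was used. The 50 genes had 95 probe sets. Of the 50, 41 passed the filter on low signals and were tested, out of 7321 genes tested in all, and all 50 symbols matched RefSeq.

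The tissue was the paraventricular nucleus of the hypothalamus (PVN), cut by laser from frozen brain sections of C57Bl/6 mice under a microscope. The ECS groups were anaesthetised with isoflurane and received 1 electroconvulsive shock through ear clips (25 mA for 1 s). Their tissue was taken 2 h or 6 h later. The sham group was handled in the same way without a shock and its tissue was taken at 2 h, so the 6 h group had no sham of its own time and there the time since handling and the shock cannot be told apart. Each group had 2 arrays, each array held the RNA of 2 or 3 pooled animals, and the experiment was done 2 times with different animals. The labels give neither age nor sex, and pooling hides the spread between animals.

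A Rab binds GTP to become active and GDP to be switched off, and cycles between membrane and cytosol as it does so. Exchange factors load it with GTP, GTPase-activating proteins switch it off, and effectors bind the active form to move, tether or fuse vesicles. Newly made Rabs are handed by escort proteins to a prenyl transferase that adds the lipid anchor, and GDP dissociation inhibitors return the inactive form to the cytosol. In the PVN, neurons that make vasopressin, oxytocin and releasing hormones pack them into dense-core vesicles, whose release uses Rabs of the Rab3 and Rab27 groups.

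Signals are given below as log2(quantile-normalised signal + 16), whose floor is 4. A difference between groups is a difference of means on that scale, ± its standard error (SE) from limma, with 2 arrays a group, and it understates the change of dim genes. Signals of different probe sets depend on the probes and were not set against each other. "Arrays apart" means that both arrays of a group lay above, or both below, both arrays of the other group. The 6 arrays had deposited medians of 25.2 to 40.8. The first 6 h array stood somewhat apart, with a mean rank correlation to the other arrays of 0.846, against 0.869 to 0.890 for the rest. In bulk tissue, fewer cells of a type and less RNA per cell cannot be told apart.

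Markers of the tissue and its neighbours, listed with earlier results of these data known, were used to describe what the samples held. Of 11 PVN and hypothalamus genes on the array, 9 passed the filter, among them Oxt, Avp, Trh and Sim1. Otp and Hcrt lay below the array median throughout. All 9 tested genes had higher means at 2 h than in sham, with a median of 0.285. The arrays were apart there for Oxt, Sst and Pomc only. Trh and Scg2 had 9.11 and 9.31 on the first sham array, against 10.09 and 10.50 on the second. The 11 genes summed to 9112 and 11184 in sham, 12219 and 12355 at 2 h, and 12065 and 12584 at 6 h. Genes of cortex and hippocampus neurons (8 on the array, 5 tested) differed in level between the groups. Their summed linear signal was 2258 and 1886 in sham, 278 and 263 at 2 h, and 467 and 1185 at 6 h. Neurod2 and Prox1 lay below the median on every array. Most of the sham sum came from Kalrn and Camk2a, which differed from sham by -3.07 and -2.74 at 2 h. All 5 tested genes of that list had lower means at both times, with medians of -2.39 at 2 h and -1.45 at 6 h. General neuron genes (18 tested) summed to 19648 and 19781 in sham, 15358 and 16169 at 2 h, and 16084 and 18126 at 6 h, and 15 of the 18 were lower at 2 h. Oligodendrocyte genes (8 on the array, 5 tested) summed to 3709 and 3350 in sham, 2813 and 3006 at 2 h, and 2414 and 2678 at 6 h. Astrocyte genes (8 tested) summed to 5495 and 5857 in sham, 5359 and 6299 at 2 h, and 5295 and 5853 at 6 h. For microglia genes (6 tested) the sums were 1489 and 1084, 1359 and 1111, and 1502 and 1136 in that order. For endothelial and mural genes (6 tested) they were 903 and 1270, 1133 and 1298, and 996 and 1291. The 50 Rab genes summed to 17627 and 18166 in sham, 16966 and 16950 at 2 h, and 16183 and 18130 at 6 h. The part of these marker differences in the Rab values below was not tested.

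No Rab gene was called in any of the 3 comparisons at an adjusted p of 0.05 (limma, Benjamini-Hochberg over the 12662 tested probe sets). The percentage of all tested probe sets called was 0 in each comparison, so the 0 of 41 is the same as the background. The smallest adjusted p of a Rab gene (limma) was 0.9997 at 2 h against sham, 0.9998 at 6 h against sham and 0.999 at 6 h against 2 h. At an unadjusted p of 0.05, limma picked 1 Rab gene at 2 h (Rab33a), where it picked 4.03% of all tested genes. It picked 0 Rab genes at 6 h against sham (3.65% of all genes) and 0 at 6 h against 2 h (3.41% of all genes). Over all tested probe sets the shares were 4%, 3.75% and 3.46%. A fit that took the replicate number, assumed to be the run, as a block called 4 probe sets at 2 h (0.0316% of those tested), none of them a Rab. The same blocked fit called 0 at 6 h against sham and 0 at 6 h against 2 h. Its unadjusted p was under 0.05 for 1 Rab gene at 2 h (6.42% of all genes), for 0 at 6 h against sham (6.21%) and for 0 at 6 h against 2 h (5.7%).

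These tests had little power for moderate changes. When 200 of 12662 probe sets were changed in simulated data of the 2 h comparison, limma called 2.42% of those changed 2-fold, 26.2% of those changed 4-fold and 59% of those changed 8-fold. A missed threshold therefore does not show that a Rab gene did not change. The 95% intervals bound the change better: the interval lay within 2-fold in either direction for 18 of the 41 genes at 2 h, 16 at 6 h and 19 between 6 h and 2 h. It lay within 1.5-fold for 2 genes at 2 h and 3 at 6 h.

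**Figure D1:**
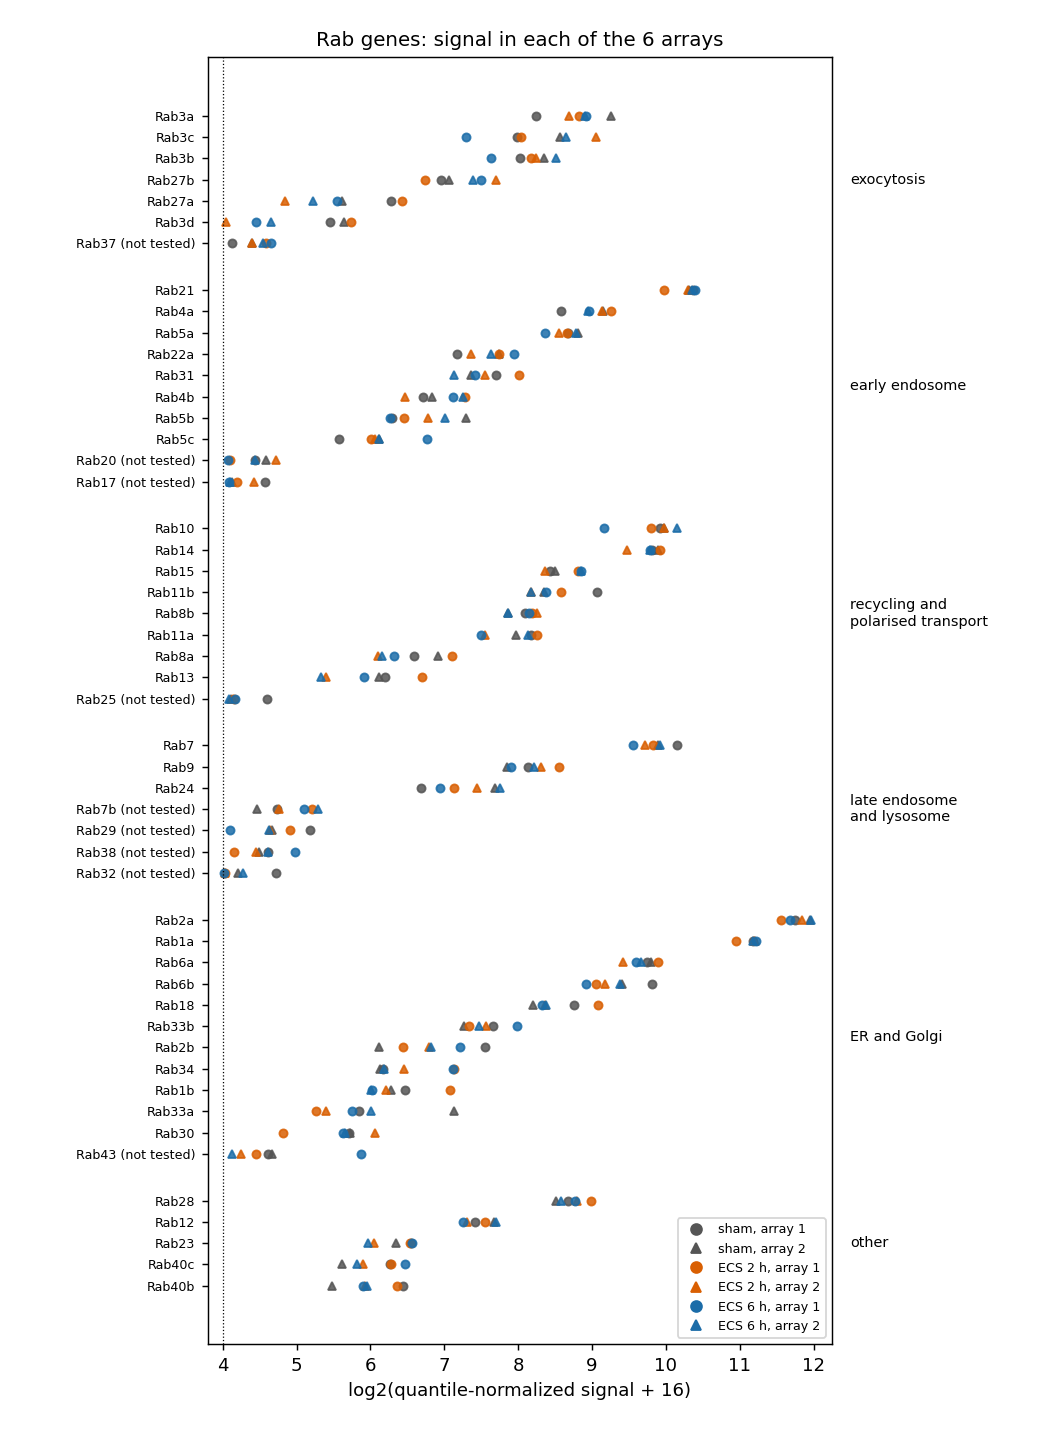
Signal of each of the 50 Rab genes in the 6 arrays, as log2(quantile-normalised signal + 16) on the horizontal axis, grouped by membrane route; grey is sham, orange ECS at 2 h and blue ECS at 6 h, circles are array 1 and triangles array 2, and the dotted line is the floor of 4. The 9 genes marked as not tested lie between 4.02 and 5.87, and for most tested genes the 3 colours interleave.

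At 2 h, 19 Rab genes had a higher and 22 a lower mean than sham, against 51.5% higher and 48.5% lower among all tested genes. The median Rab difference was -0.0639, and that of all tested genes 0.0129. The Rab median turned to 0.0959 without the second 2 h array and to 0.00558 with the filter at the 75th percentile. The arrays were apart with ECS higher for 4 Rab genes (Rab28, Rab9, Rab8b and Rab34), where 16.9% of all genes were so, and with ECS lower for 5 (Rab21, Rab7, Rab6b, Rab5a and Rab33a), where 16.4% were. The change reached 2-fold for 1 Rab gene, Rab33a, against 3.35% of all genes. The median size of the difference, whatever its sign, was 0.179 for Rab genes and 0.251 for all genes, and 27 of the 41 Rab genes differed by less than 0.25.

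At 6 h, 17 Rab genes had a higher and 24 a lower mean than sham, against 49.8% and 50.2% of all genes. The median difference was -0.0719 for Rab genes and -0.00196 for all genes, and the Rab median was -0.00275 without the first 6 h array, 0.0162 with median subtraction between arrays, which moved all genes to 0.110, and 0.0122 with the filter at the 75th percentile. The arrays were apart with ECS higher for 5 Rab genes (Rab15, Rab27b, Rab4b, Rab34 and Rab5c), where 15% of all genes were so. They were apart with ECS lower for 9 (Rab14, Rab6a, Rab6b, Rab8a, Rab1b, Rab13, Rab27a, Rab30 and Rab3d), where 15.4% were. The 2-fold mark was reached by 0 Rab genes and by 3.44% of all genes. Both comparisons use the same sham arrays, so their directions are not independent.

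Between 6 h and 2 h, 19 Rab genes had a higher mean at 6 h and 22 a lower one, against 49.1% and 50.9% of all genes, and the median was -0.0283 (all genes -0.00753). The arrays were apart with 6 h higher for 6 genes (Rab21, Rab3a, Rab15, Rab2b, Rab5c and Rab33a; 14.3% of all genes) and lower for 6 (Rab4a, Rab28, Rab9, Rab8b, Rab31 and Rab1b; 15.8%). A 2-fold difference was reached by 0 Rab genes and 3.29% of all genes. Scaling moved the centre of all genes here: with no scaling between arrays their median was 0.164 and that of the Rab genes 0.160. Relative to the median of all genes, the Rab median was -0.0208 with quantile normalisation and -0.00342 with no scaling. At 2 h and 6 h against sham the same quantity was -0.0768 and -0.0699 with quantile normalisation, and -0.0598 and -0.0939 with no scaling. Median subtraction shifts all genes of an array alike, so it must give the same values as no scaling.

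**Figure D2:**
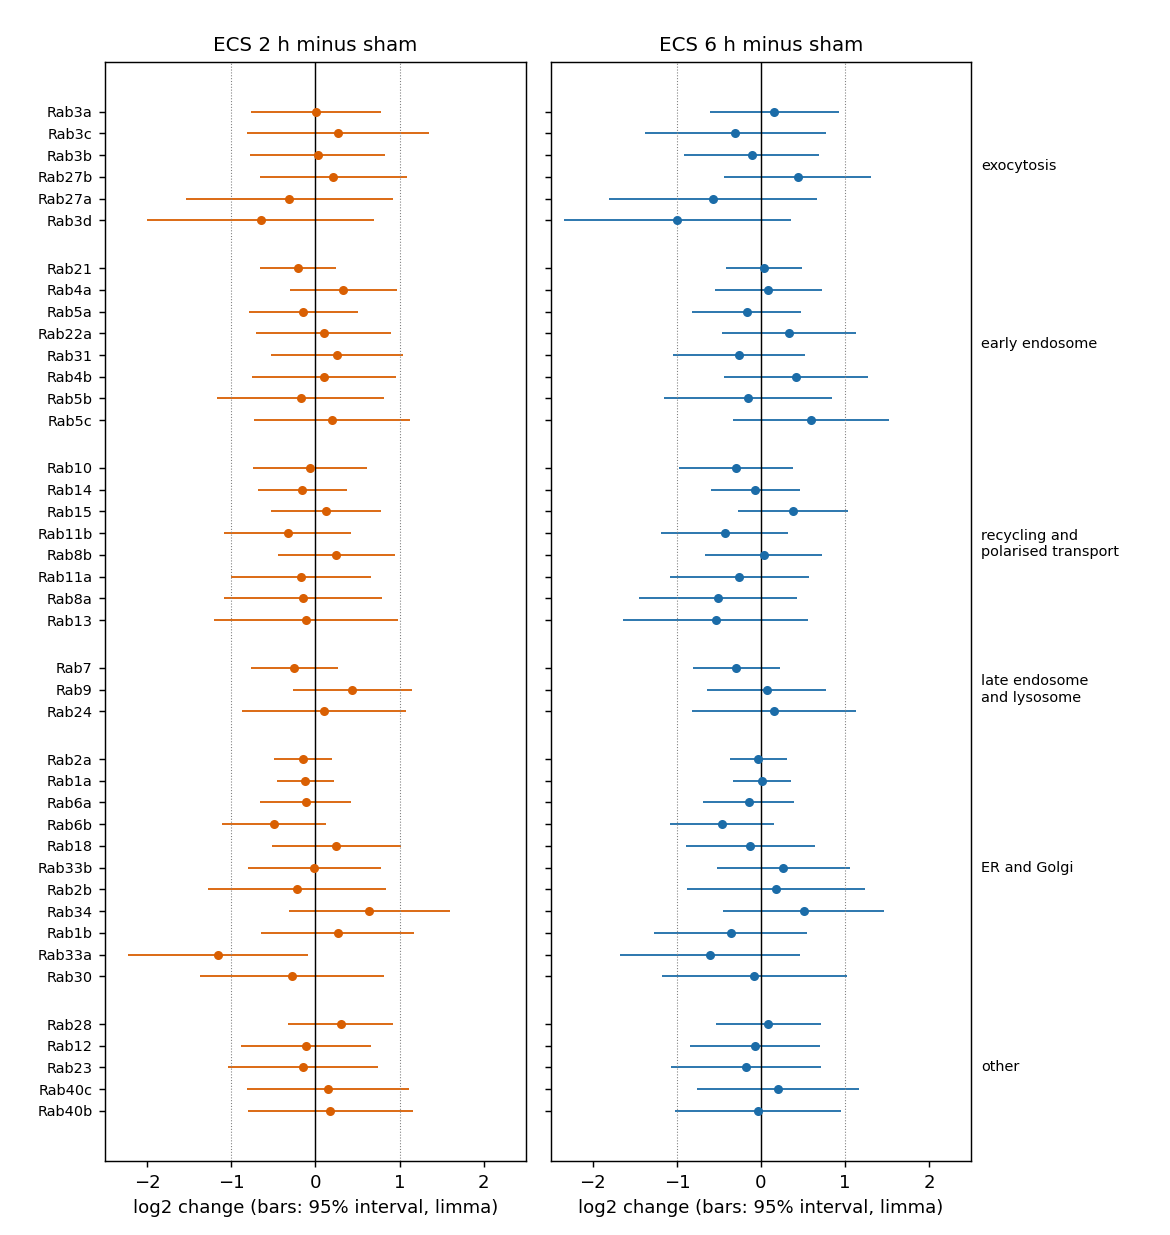
Difference from sham on the log2 scale (horizontal axis) for each of the 41 tested Rab genes at 2 h (orange) and 6 h (blue), grouped by membrane route; bars are limma's 95% intervals and dotted lines mark a 2-fold change. The interval of Rab33a at 2 h is the only one drawn that leaves 0 out.

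The range of the 3 group means had a median of 0.303 for Rab genes and 0.425 for all tested genes, and the median SD within a group was 0.347 and 0.358. Genes were then split by signal level. Among genes with a mean log2 signal of at least 8, the 19 Rab genes had a median range of group means of 0.292 and the 2058 genes in all had 0.285, while the SD within a group was 0.196 and 0.260. Below 8, the range was 0.404 for 22 Rab genes and 0.490 for 5263 genes in all, with SDs of 0.420 and 0.398. The whole range over the 6 arrays was under 0.5 for 10 Rab genes and over 1 for 13. These are descriptions without a test.

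The Rabs of regulated exocytosis guide synaptic and dense-core vesicles to the plasma membrane. Of 6 tested genes, 4 had higher and 2 lower means at 2 h (median 0.0151), and 2 were higher and 4 lower at 6 h (median -0.209). None was called by limma. The spread between arrays was wide in this route: its median SE of 0.442 compares with 0.363 for all Rab genes.

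Rab3a, the main Rab of synaptic vesicles, had log2 signals of 8.25 and 9.26 in sham, 8.83 and 8.69 at 2 h, and 8.92 and 8.91 at 6 h. The 2 sham arrays were its lowest and highest values, so no ECS array left the sham range, and the difference from sham was 0.01 ± 0.349 at 2 h and 0.16 ± 0.349 at 6 h. Rab3b, a close relative found in endocrine and some neuronal secretory cells, had 8.02 and 8.35 in sham, 8.18 and 8.24 at 2 h, and 7.64 and 8.51 at 6 h. Its groups overlapped at both times, with the first 6 h array the lowest of the 6 and the second the highest, and the differences were 0.02 ± 0.364 at 2 h and -0.11 ± 0.364 at 6 h.

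Rab3c, another synaptic vesicle Rab, had 7.99 and 8.57 in sham, 8.04 and 9.06 at 2 h, and 7.30 and 8.65 at 6 h. In each group its array 1 was the lower, and all groups overlapped. It differed from sham by 0.27 ± 0.488 at 2 h and -0.31 ± 0.488 at 6 h, and 6 h differed from 2 h by -0.58 ± 0.488 (limma unadjusted p = 0.263). The other tested probe set of Rab3c differed from sham by 1.32 ± 0.511 at 2 h. At 6 h it had the opposite sign to the brightest, 0.59 ± 0.511, and overlapped sham. Rab3d, the form best known from exocrine and endocrine granules, had 5.46 and 5.64 in sham, 5.74 and 4.05 at 2 h, and 4.45 and 4.65 at 6 h, near the floor on 3 arrays. Both 6 h arrays lay below both sham arrays, whereas the 2 h arrays were the highest and the lowest of the 6. The 6 h difference was -0.998 ± 0.611 (limma unadjusted p = 0.132). The gene reached the array median on 2 arrays only, and its difference ranged from -1.93 with an offset of 1 to -0.41 with an offset of 64.

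Rab27a and Rab27b act in the docking of dense-core vesicles and lysosome-related organelles. Rab27a had 6.28 and 5.62 in sham, 6.43 and 4.85 at 2 h, and 5.54 and 5.22 at 6 h. Its 6 h arrays lay below both sham arrays, and its 2 h arrays were the highest and lowest of all, with differences of -0.31 ± 0.559 at 2 h and -0.57 ± 0.559 at 6 h. Another tested probe set of Rab27a, which reached the array median on 2 arrays only, overlapped sham at both times. It differed by 0.51 ± 0.559 at 2 h and -0.01 ± 0.559 at 6 h. Rab27b had 6.96 and 7.06 in sham, 6.74 and 7.70 at 2 h, and 7.50 and 7.39 at 6 h. Both 6 h arrays lay above sham while the 2 h arrays fell on either side of it, and the differences were 0.21 ± 0.395 at 2 h and 0.44 ± 0.395 at 6 h. The other tested probe set of Rab27b went the opposite way, by -0.31 ± 0.427 at 2 h and -0.64 ± 0.427 at 6 h. It had 7.52 and 6.57 in sham and 6.26 and 6.55 at 6 h. Both of its 6 h arrays thus lay below sham, the second narrowly. The mean over the probe sets of Rab27b was -0.0512 at 2 h and -0.103 at 6 h. Rab37, known from mast cell secretion, was not tested.

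The Rabs of early endosomes, which receive endocytosed receptors and sort them, had 5 higher and 3 lower means of 8 tested at 2 h (median 0.0973) and again 5 higher and 3 lower at 6 h (median 0.0611). None was called.

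Rab5a, which drives the fusion of early endosomes, had 8.68 and 8.82 in sham, 8.65 and 8.56 at 2 h, and 8.37 and 8.79 at 6 h. The 2 h arrays lay just below sham and the 6 h arrays below and within its range, with differences of -0.14 ± 0.295 and -0.17 ± 0.295. Rab5c, its close relative, had 5.58 and 6.11 in sham, 6.01 and 6.06 at 2 h, and 6.77 and 6.11 at 6 h. The first 6 h array was the highest of the 6, the second lay level with the second sham array, and the 6 h difference was 0.60 ± 0.419 (limma unadjusted p = 0.181).

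Rab4a, of the fast recycling route back to the surface, had 8.58 and 9.15 in sham, 9.26 and 9.13 at 2 h, and 8.96 and 8.94 at 6 h. The first sham array was the low one, and the difference at 2 h was 0.33 ± 0.288 (limma unadjusted p = 0.274). Its probe set is of a type that can match several transcripts. Rab21, which is linked to the uptake of integrins, had 10.37 and 10.31 in sham, 9.97 and 10.30 at 2 h, and 10.40 and 10.35 at 6 h. Both 2 h arrays lay below the other 4, the first by a wide margin and the second narrowly, with a difference of -0.21 ± 0.202 from sham, and 6 h minus 2 h was 0.24 ± 0.202. The other tested probe set of Rab21 had the opposite signs, 0.14 ± 0.299 at 2 h and -0.13 ± 0.299 for 6 h minus 2 h.

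Rab31, which works between the trans-Golgi network and endosomes, had 7.70 and 7.36 in sham, 8.02 and 7.55 at 2 h, and 7.41 and 7.14 at 6 h. Both 6 h arrays lay below both 2 h arrays, with 6 h minus 2 h at -0.51 ± 0.355 (limma unadjusted p = 0.179). Rab22a, Rab4b and Rab5b, the other tested genes of the route, differed from sham by -0.178 to 0.0986 at 2 h and -0.154 to 0.413 at 6 h.

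Recycling endosomes and polarised transport return cargo to the surface or carry it to a chosen part of it. Of 8 tested genes, 2 were higher and 6 lower at 2 h (median -0.132), and 2 were higher and 6 lower at 6 h (median -0.277). None was called.

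Rab11a, the classic recycling endosome Rab, had 8.18 and 7.97 in sham, 8.25 and 7.56 at 2 h, and 7.50 and 8.13 at 6 h. The groups overlapped at both times, with differences of -0.17 ± 0.375 and -0.26 ± 0.375. Rab11b, the relative most abundant in brain, had 9.06 and 8.35 in sham, 8.58 and 8.17 at 2 h, and 8.38 and 8.17 at 6 h. A high first sham array stood above the other 5, and the second sham array lay inside the ECS values. The differences were -0.33 ± 0.342 at 2 h and -0.43 ± 0.342 at 6 h.

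Rab10, which carries vesicles to growing axons and to the plasma membrane, had 9.93 and 9.98 in sham, 9.80 and 9.97 at 2 h, and 9.16 and 10.15 at 6 h. Its first 6 h array was far below the other 5, and the 6 h difference of -0.30 ± 0.306 rests on it. Rab15, a brain-enriched Rab of early and recycling endosomes, had 8.43 and 8.50 in sham, 8.81 and 8.37 at 2 h, and 8.85 and 8.85 at 6 h. Both 6 h arrays exceeded all others, and the first 2 h array came next. The 6 h difference was 0.38 ± 0.295 (limma unadjusted p = 0.22).

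Rab8a, which delivers cargo from the Golgi to the surface and to cilia, had 6.59 and 6.92 in sham, 7.11 and 6.10 at 2 h, and 6.31 and 6.16 at 6 h. Both 6 h arrays were below sham, with a difference of -0.52 ± 0.425, and the 2 h arrays were the highest and the lowest of the 6. Rab8b, its relative, differed from sham by 0.25 ± 0.316 at 2 h and 0.03 ± 0.316 at 6 h in its brightest probe set. Rab13 and Rab14 differed by -0.115 and -0.155 at 2 h and by -0.540 and -0.0654 at 6 h, and Rab25, an epithelial Rab, was not tested.

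The late endosome and lysosome group had 3 tested genes, with 2 higher and 1 lower at each time and none called. Rab7, which governs the fusion of late endosomes and autophagosomes with lysosomes, had 10.15 and 9.90 in sham, 9.83 and 9.72 at 2 h, and 9.55 and 9.92 at 6 h. The 2 h arrays lay below sham and the second 6 h array reached the sham range, with differences of -0.25 ± 0.235 and -0.29 ± 0.235. The other tested probe set of Rab7 had the opposite sign at both times, 0.35 at 2 h and 0.24 at 6 h. The mean over the probe sets of Rab7 was 0.0505 at 2 h and -0.0260 at 6 h. Rab9, of transport from late endosomes to the trans-Golgi network, had 8.13 and 7.85 in sham, 8.55 and 8.31 at 2 h, and 7.91 and 8.22 at 6 h. Its 2 h arrays were above all others, with the second 6 h array next. Rab9 differed by 0.44 ± 0.319 at 2 h (limma unadjusted p = 0.198), and 6 h minus 2 h was -0.37 ± 0.319. Rab24, an autophagy Rab, differed by 0.0988 and 0.158.

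The Rabs of the endoplasmic reticulum and Golgi move newly made proteins, secreted hormones among them, through the first stations of the route. Of 11 tested, 3 were higher and 8 lower at 2 h (median -0.120), and 4 were higher and 7 lower at 6 h (median -0.0780). None was called. The gene with the lowest p of all Rabs, Rab33a, is among them.

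Rab33a, a Golgi-associated Rab found mainly in brain and lymphoid cells, had 5.84 and 7.13 in sham, 5.26 and 5.39 at 2 h, and 5.75 and 6.01 at 6 h (probe set 1417529_at). The sham mean was 6.49 ± 0.913 (SD, n = 2) and the 2 h mean 5.33 ± 0.0936. The second sham array stood well above all others, the 2 h arrays were the lowest, and the first 6 h array lay just below the first sham array. The 2 h difference was -1.16 ± 0.485 (95% interval -2.23 to -0.09), a 2.24-fold lower level, with a limma unadjusted p of 0.0364 and an adjusted p of 0.9997. With the replicate block the unadjusted p was 0.0225 and the limma adjusted p 0.682. Without the second sham array the difference was -0.507 and without the first it was -1.83. Both 2 h arrays lay below the array median, and the offset set the size, -1.54 at 1 and -0.676 at 64. At 6 h the difference from sham was -0.61 ± 0.485.

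Rab6b, the neuron-enriched relative of the Golgi Rab6a, had 9.81 and 9.40 in sham, 9.06 and 9.17 at 2 h, and 8.92 and 9.37 at 6 h. All 4 ECS arrays were below both sham arrays, the second 6 h array narrowly. The difference was -0.49 ± 0.278 at 2 h (limma unadjusted p = 0.105) and -0.46 ± 0.278 at 6 h (limma unadjusted p = 0.126). Rab6a, the widely expressed form, had 9.74 and 9.81 in sham, 9.89 and 9.42 at 2 h, and 9.59 and 9.66 at 6 h. In its brightest probe set the differences were smaller, -0.12 ± 0.245 and -0.15 ± 0.245. There its 6 h arrays lay below sham, and its first 2 h array was the highest of the 6. The other tested probe set of Rab6a differed by -0.45 ± 0.318 at 2 h, near the value of Rab6b, and by -0.11 ± 0.318 at 6 h. Summed signals of neuron genes and of cortex and hippocampus neuron genes were lower in both ECS groups. The 9 tested PVN and hypothalamus genes all had higher means at 2 h, with the arrays apart for Oxt, Sst and Pomc only. The part of these marker differences in the Rab6b and Rab6a values was not tested.

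Rab34, which acts at the Golgi, in lysosome positioning and in the building of cilia, had 6.17 and 6.13 in sham, 7.12 and 6.45 at 2 h, and 7.12 and 6.19 at 6 h. All ECS arrays were above both sham arrays, with array 1 of each ECS group far above it and array 2 of the 6 h group barely above. The differences were 0.64 ± 0.434 at 2 h (limma unadjusted p = 0.169) and 0.51 ± 0.434 at 6 h (limma unadjusted p = 0.268). Without the first array of the ECS group in question they were 0.305 and 0.0418, and without the second 0.976 and 0.972. The other tested probe set of Rab34 overlapped sham at both times and differed by 0.20 ± 0.511 at 2 h and 0.33 ± 0.511 at 6 h.

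Rab1a, which controls transport from the endoplasmic reticulum to the Golgi, had 11.18 and 11.20 in sham, 10.95 and 11.19 at 2 h, and 11.22 and 11.19 at 6 h. Apart from a lower first 2 h array its values lay close together, and the differences were -0.12 ± 0.155 and 0.01 ± 0.155, with a 6 h interval of -0.33 to 0.35. Rab1b, its near copy, had 6.47 and 6.27 in sham, 7.07 and 6.21 at 2 h, and 6.02 and 6.00 at 6 h. Its first 2 h array was the high one, and 6 h minus 2 h was -0.63 ± 0.412 (limma unadjusted p = 0.156), the lowest p of a Rab gene in that comparison. Rab2a, which acts between the Golgi and the endoplasmic reticulum and in the making of dense-core vesicles, had 11.75 and 11.95 in sham, 11.55 and 11.85 at 2 h, and 11.68 and 11.96 at 6 h. Array 1 was below array 2 in every group, and for both replicate numbers the 2 h array was below the sham array of the same number. The difference at 2 h was -0.15 ± 0.155 (limma unadjusted p = 0.354, and 0.0978 with the replicate block), and that at 6 h was -0.03 ± 0.155. Rab18, Rab2b, Rab30 and Rab33b differed from sham by -0.281 to 0.248 at 2 h and -0.128 to 0.265 at 6 h.

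**Figure D3:**
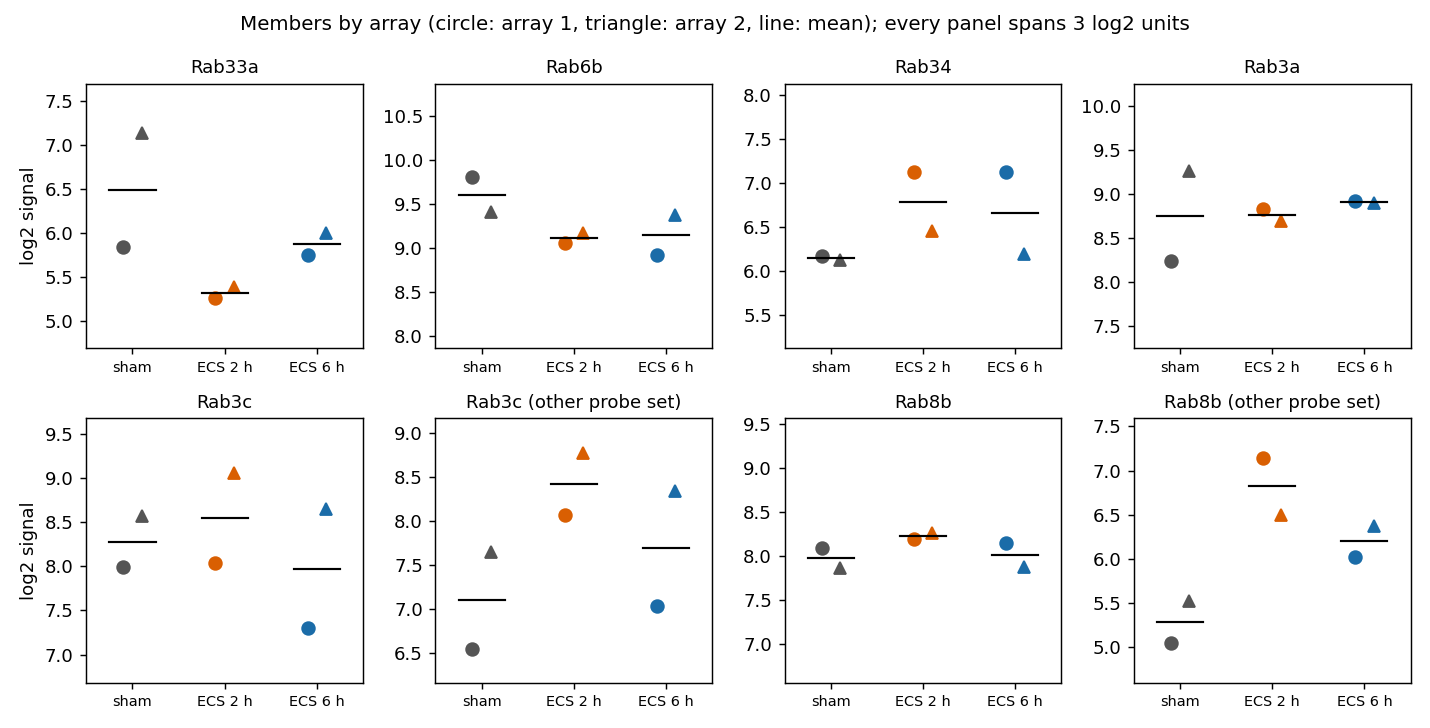
Log2 signal (vertical axis, 3 units in each panel) of 6 Rab genes in sham, ECS at 2 h and ECS at 6 h; circles are array 1, triangles array 2 and bars the mean of the 2. Rab33a is high on the second sham array, at 7.13, all ECS arrays of Rab6b lie below sham, and the other probe sets of Rab3c and Rab8b show larger 2 h differences than the brightest ones.

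Of 5 Rab genes placed in none of these routes, 3 were higher and 2 lower at 2 h (median 0.148), and 2 were higher and 3 lower at 6 h (median -0.0343). They are Rab12, Rab23, Rab28, Rab40b and Rab40c, and their differences from sham ran from -0.151 to 0.303 at 2 h and from -0.176 to 0.206 at 6 h. The 9 genes not tested were Rab7b, Rab17, Rab20, Rab25, Rab29, Rab32, Rab37, Rab38 and Rab43. Their mean signals lay between 4.21 and 4.93, and 8 of them were below the array median on all 6 arrays. The exception was Rab43, a Golgi Rab, whose first 6 h array reached 5.87. The lowest means were those of Rab17 and Rab25, known from epithelia, and of Rab32, known from pigment granules and mitochondria.

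A gene with more than 1 probe set offers a check within the array. Of the 50 genes, 27 had more than 1, up to 7 for Rab2a, and 21 had at least 2 that were tested. All tested probe sets had the same sign in 13 of these 21 genes at 2 h and in 15 at 6 h, and the median spread between the highest and lowest difference of a gene was 0.341 and 0.388. The 6 tested probe sets of Rab2a ran from -0.281 to -0.121 at 2 h. Those of Rab14 ran from -0.540 to 0.582.

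The largest differences of any Rab probe set at 2 h came from probe sets other than the brightest, and they were picked after their values were seen. The second probe set of Rab8b (1426800_at) had 5.04 and 5.52 in sham, 7.14 and 6.50 at 2 h, and 6.02 and 6.37 at 6 h. Both ECS groups lay above sham, and the 2 h difference was 1.54 ± 0.421, with a limma unadjusted p of 0.00399 and an adjusted p of 0.790, or 0.447 with the replicate block. This probe set was below the array median on both sham arrays, so it passed the filter through ECS arrays alone. The brightest probe set of the gene differed by 0.25. The second probe set of Rab3c (1432432_a_at) had 6.55 and 7.64 in sham, 8.06 and 8.77 at 2 h, and 7.04 and 8.34 at 6 h, a 2 h difference of 1.32 ± 0.511 with a limma unadjusted p of 0.0261 and an adjusted p of 0.9997. Both 2 h arrays lay above both sham arrays, while the brightest probe set overlapped between the groups. Another of Rab2b differed by 1.23 ± 0.571, against -0.22 ± 0.478 for the brightest.

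**Figure D4:**
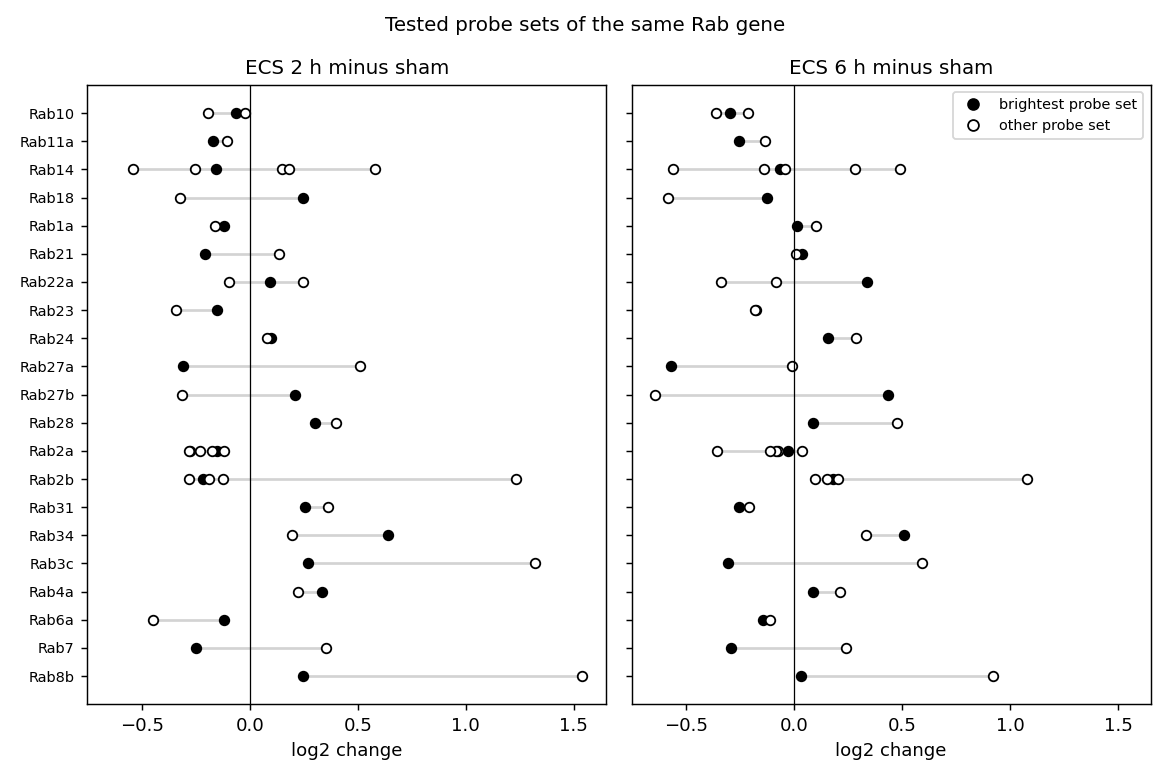
Log2 difference from sham at 2 h (left) and 6 h (right) for every tested probe set of the 21 Rab genes with at least 2 of them; filled points are the brightest probe set of a gene, open points the others, and a grey line joins them. The open points of Rab8b, Rab3c and Rab2b at 1.54, 1.32 and 1.23 lie far to the right of the filled ones at 2 h.

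Promoter windows of the Rab genes were described by motif matches and CpG counts. The windows printed here were picked by p or by motif and do not stand for the family. RefSeq (GRCm38.p6) gave 54 windows of 250 bases before a transcription start for 42 of the 50 genes. A set of 5 motifs was searched on both strands: the cyclic AMP element TGACGTCA, known as a site of activity-dependent transcription, the AP-1 site TGACTCA, bound by Fos and Jun proteins, the GC box GGGCGG, the E-box CACGTG and the TATA box TATAAA. Shown in full are the windows of Rab33a, Rab6b and Rab34, the 3 genes of lowest p at 2 h, and of Rab5a, the tested gene whose window held the cyclic AMP element. Capitals mark motif matches, and none of these overlapped.
Rab33a, chrX:48519035-48519284, plus strand: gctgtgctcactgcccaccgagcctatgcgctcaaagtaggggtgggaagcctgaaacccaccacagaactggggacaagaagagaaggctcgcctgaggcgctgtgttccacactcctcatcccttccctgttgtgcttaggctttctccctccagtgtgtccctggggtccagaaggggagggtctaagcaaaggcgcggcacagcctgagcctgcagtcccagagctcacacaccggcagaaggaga
Rab6b, chr9:103111824-103112073, plus strand: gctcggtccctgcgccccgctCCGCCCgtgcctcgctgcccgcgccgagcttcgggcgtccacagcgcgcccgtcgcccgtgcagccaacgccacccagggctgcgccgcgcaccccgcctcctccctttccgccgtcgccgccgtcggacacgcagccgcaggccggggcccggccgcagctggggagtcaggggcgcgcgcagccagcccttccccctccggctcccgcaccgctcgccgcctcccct
Rab34, chr11:78188177-78188426, plus strand: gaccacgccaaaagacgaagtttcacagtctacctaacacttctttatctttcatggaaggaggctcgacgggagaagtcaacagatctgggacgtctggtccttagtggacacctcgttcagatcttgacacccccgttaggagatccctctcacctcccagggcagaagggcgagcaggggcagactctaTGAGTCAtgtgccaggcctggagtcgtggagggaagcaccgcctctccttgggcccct
Rab5a, chr17:53478984-53479233, plus strand: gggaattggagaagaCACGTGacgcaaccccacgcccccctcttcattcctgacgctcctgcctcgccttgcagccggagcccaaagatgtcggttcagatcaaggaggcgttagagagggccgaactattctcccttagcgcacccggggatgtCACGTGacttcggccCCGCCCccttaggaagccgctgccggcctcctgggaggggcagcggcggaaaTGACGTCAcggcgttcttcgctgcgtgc

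The Rab33a window held none of the 5 motifs and had 7 CpG dinucleotides. The Rab6b window had 40, with a GC box 229 bases before the start. That of Rab34 held an AP-1 site 58 bases before this start, the first of its starts listed. The window of its other listed start, not shown, held a GC box 15 bases before that start and no AP-1 site. That of Rab5a held E-boxes at 235 and 95 bases, a GC box at 80 and the cyclic AMP element at 28. Over the family the cyclic AMP element was in 2 of 54 windows (3.70%, against 1.55% of all 32851 windows), those of Rab5a and Rab25. The AP-1 site was also in 2 (3.70% against 4.46%), those of Rab34 and Rab15. A GC box was in 36 of the 54 (66.7% against 32.7%), an E-box in 5 (9.26% against 6.02%) and a TATA box in 2 (3.70% against 12.4%). The median number of CpG dinucleotides was 15 for Rab windows, 13 for the windows of all genes on the array and 6 for all windows. Motif shares were not counted for the windows of genes on the array, so the shares above lack a background of like CpG content. A match is a string of letters and was not tested as a binding site.

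The proteins that act on Rabs were counted from lists of known members. Of the delivery and prenylation factors, 5 of 7 on the array were tested, of the exchange factors 9 of 13, of the GTPase-activating proteins 13 of 17 and of the effectors 19 of 23. None of these was called by limma in any comparison. At 2 h the means were higher for 3, 7, 7 and 9 of them and lower for 2, 2, 6 and 10, with medians of 0.0189, 0.124, 0.157 and -0.00944 in that order. At 6 h they were higher for 2, 5, 5 and 7 and lower for 3, 4, 8 and 12, with medians of -0.159, 0.0788, -0.130 and -0.0556.

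Gdi2, a GDP dissociation inhibitor that extracts Rabs from membranes, had 10.55 and 10.46 in sham, 10.48 and 10.49 at 2 h, and 10.04 and 10.65 at 6 h. The first 6 h array was lower than the other 5, and the differences were -0.02 ± 0.225 and -0.16 ± 0.225. Rabggtb, a subunit of the prenyl transferase, differed by 0.19 ± 0.276 at 2 h and 0.27 ± 0.276 at 6 h. Rabggta, its partner subunit, differed by -0.80 ± 0.557 at 6 h and was above the array median on 2 arrays only.

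Rims2, a Rab3 effector of the presynaptic active zone, had 6.32 and 6.88 in sham, 5.28 and 5.41 at 2 h, and 5.63 and 6.35 at 6 h. Both 2 h arrays were below all others and below the array median, and the 2 h difference was -1.25 ± 0.434 (limma unadjusted p = 0.0153, adjusted p = 0.9997). Sytl4, an effector of Rab27 on dense-core vesicles, had 7.80 and 7.22 in sham, 8.11 and 8.64 at 2 h, and 8.57 and 7.77 at 6 h. Both 2 h arrays lay above both sham arrays, by 0.86 ± 0.392 (limma unadjusted p = 0.0508). Vps39, a tethering factor that works with Rab7, had 7.39 and 7.92 in sham, 7.96 and 8.38 at 2 h, and 8.85 and 8.09 at 6 h. All ECS arrays were above both sham arrays, and the 6 h difference was 0.81 ± 0.377 (limma unadjusted p = 0.0544).

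Among the regulators, Rabgap1l, a GTPase-activating protein, had 7.37 and 6.67 in sham, 8.04 and 7.66 at 2 h, and 6.33 and 7.21 at 6 h. The 2 h arrays were the highest, and 6 h minus 2 h was -1.07 ± 0.422 (limma unadjusted p = 0.0279, adjusted p = 0.999). Tbc1d22a, of the same class, differed from sham by 0.65 ± 0.43 at 2 h and 0.82 ± 0.43 at 6 h. Ccz1, part of the exchange factor of Rab7, differed by 0.51 ± 0.344 at 2 h and -0.11 ± 0.344 at 6 h. Rabgef1, an exchange factor of Rab5, differed by 0.70 ± 0.424 at 6 h.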

How the data were processed

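The deposited table holds linear intensity values. Per the submitters' processing notes the authors used MAS5, whose version and target signal were not given in the sources used here; detection calls were not used here. From 22690 probe sets, 64 controls were left out. Per the labels' protocols, 2 ng of RNA was amplified before hybridisation of 5 µg of cDNA on 1-colour Affymetrix arrays.

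Signals were quantile-normalised and log2(signal + 16) was taken. The 12662 probe sets (56%) at or above their array's median on at least 2 of 6 arrays were tested in limma 3.58.1 (R 4.3.3), with all 6 arrays, a mean per group, an intensity trend, 3 residual and 7.64 prior degrees of freedom, two-sided, with Benjamini-Hochberg adjustment at 0.05. Gene symbols came from the platform annotation (20380 probe sets with 1 symbol, 691 with several, 1555 with none). The number of arrays limits the precision. The 2 runs used different animals, so p-values measure the spread between pools, not between single animals.

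Replicate numbers were taken as the 2 runs, an assumption that the labels do not state. Across all tested probe sets, how far replicate 1 lay from the mean of its group correlated by 0.228, 0.185 and 0.151 between pairs of groups, so the numbers were taken to pair the arrays, and an alternative fit had the run as a block. Among the tested Rab genes the correlations were 0.223 for sham and 2 h, 0.382 for sham and 6 h, and 0.339 for 2 h and 6 h. The SEs and intervals given come from the fit without the block. Other alternatives changed the offset, scaling, filter, variance trend, array weights, arrays in the fit and the probe sets of a gene, and left out each array in turn. The limma step was tested on simulated data: 20 draws gave 1 false call per draw, and 5.44% of unchanged probe sets fell under an unadjusted p of 0.05. Named Rab genes are the 5 of smallest p per comparison, any with an unadjusted p under 0.05, the 5 of highest signal, the 3 of lowest signal, and a set listed by name for its function. Up to 4 regulators or effectors per list and comparison were eligible by smallest p, and the text gives a part of them. The members, lists and alternatives were chosen with earlier results of these data known. Promoter windows were read from RefSeq tables with Python 3.11.15.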

Additional observations from a re-analysis of the deposited data

How the results depend on the processing

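The count of Rab genes called was 0 in all 3 comparisons under every alternative run, the replicate block included, and the smallest limma adjusted p of a named Rab gene under any of them was 0.397. For all probe sets the count at 2 h was 0, and it became 1 with no scaling, 1 with median subtraction, 2 with array weights, 4 with the replicate block and 7 with the other group left out, with a range of 0 to 10 when each array was left out. The 6 h count ranged from 0 to 6 and the count between 6 h and 2 h from 0 to 3 when each array was left out, and it reached those values without the second 6 h array. The block, which pairs the arrays by replicate number, changed no other call.

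The median Rab difference ranged from -0.0741 to 0.0959 at 2 h when an array was left out, and between 6 h and 2 h it was 0.160 with no scaling, 0.0664 with median subtraction, 0.00116 with means over probe sets and -0.107 to 0.0871 with an array left out. With the filter at the 75th percentile it was 0.00558 at 2 h and 0.0122 at 6 h. With median subtraction the median of all genes at 6 h was 0.110, and that of the Rab genes 0.0162.

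For named genes, 867 of 913 recomputed differences kept their direction and 46 turned. At 2 h, Rab3a was -0.00289 with an offset of 64, -0.0758 with no scaling and -0.00316 with 4 arrays, Rab3b was -0.0860 with no scaling, and means over probe sets gave 0.0505 for Rab7 and -0.0512 for Rab27b. At 6 h, Rab2a was 0.176 with no scaling and 0.201 with median subtraction, Rab6a 0.0162 with median subtraction, and Rab27b -0.103 as the mean over probe sets. The causes of these turns were not tested.

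Leaving out 1 array at a time gave ranges across 0 at 2 h for Rab3d (-0.763 to 0.192), Rab5c (-0.0741 to 0.454), Rab15 (-0.0956 to 0.342), Rab11b (-0.695 to 0.0269), Rab1b (-0.168 to 0.700), Rab3c (-0.238 to 0.781), Rab1a (-0.242 to 0.00165), Rab10 (-0.149 to 0.0183), Rab3a (-0.499 to 0.520), Rab3b (-0.144 to 0.189), Rab27a (-1.12 to 0.481), Rab27b (-0.265 to 0.687), Rab11a (-0.524 to 0.175), Rab6a (-0.358 to 0.118) and Rab8a (-0.658 to 0.357). At 6 h it did so for Rab33a (-1.27 to 0.0352), Rab9 (-0.0903 to 0.218), Rab4a (-0.197 to 0.376), Rab3c (-0.988 to 0.360), Rab2a (-0.171 to 0.113), Rab1a (-0.00419 to 0.0314), Rab10 (-0.797 to 0.202), Rab3a (-0.343 to 0.676), Rab3b (-0.551 to 0.323), Rab5a (-0.384 to 0.0378) and Rab11a (-0.577 to 0.0596), and between 6 h and 2 h for Rab3c (-1.26 to 0.0947). Ranges on one side of 0 were wide as well: -1.83 to -0.507 for Rab33a at 2 h, -0.699 to -0.286 and -0.695 to -0.230 for Rab6b at 2 h and 6 h, and 0.305 to 0.976 and 0.0418 to 0.972 for Rab34. A group left with 1 array was assumed to vary like the others. Array medians of 25.2 to 40.8 lie close to the offset of 16, which limits what can be said of dim Rab genes.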
